A study of Nicotiana tabacum with 4 samples.

Results

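In 197 of the 50705 gene models measured in young tobacco leaves, transcript levels were high in 1 library of each genotype and low in the other. There were 2 libraries of plants transgenic for Wov, which is a tomato allele of Woolly, and 2 of wild-type (WT) plants. A model was counted as a member when its read count scaled to 1000000 reads of the library (CPM) was at least 3 in both Wov 2 and WT 1, and when the smaller of those values was more than 4 times the larger of Wov 1 and WT 2. The members were thus chosen by their measured levels in all 4 libraries. Their split across the libraries is therefore a description and was not tested.

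Per the labels, leaves of Nicotiana tabacum were the young primary ones of mature plants, and the genotypes are the only stated difference between groups. The promoter that drives the transgene, the number of transgenic lines and the number of plants behind a library were not stated in the labels. Replicates were taken from the sample titles, and no label says that they were separate plants. P-values therefore reflect the spread between these libraries alone, and that spread may be technical. No label gives a harvest time, leaf position or batch that joins Wov 2 with WT 1. In bulk leaf RNA, fewer cells of a type and less RNA per cell cannot be told apart.

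Woolly belongs to the class IV homeodomain-leucine zipper transcription factors, a plant family active in the epidermis, and it promotes multicellular hairs (trichomes) in tomato. Tobacco leaves carry glandular and non-glandular trichomes on an epidermis that covers the photosynthetic mesophyll and the veins, and RNA of a whole leaf sums over all of them. Tobacco is an allotetraploid, so many of its genes exist as close copies from each parental genome, and reads can be divided between such copies in ways that depend on the counting.

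The numbered IDs of the deposited tables are paired with no gene names, and 0 of the 50705 matched the gene IDs, symbols or accessions of the RefSeq annotation of assembly ASM71507v2. No function, pathway or cell type can therefore be given for a member, and whether the members are genes of a leaf state could not be checked. At most 4 IDs are named, by a rule based on level and gap, and other members are described by their rank. Depth ran from 9126074 reads in Wov 1 to 11736154 in WT 1, with 10813356 in Wov 2 and 11110640 in WT 2. The minimum of 3 CPM corresponds to 27.4 to 35.2 reads in a library, and a count of 0 allows up to 3 reads, or 0.256 to 0.329 CPM. Intervals in the text are exact 95% intervals that cover counting error only.

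Most members were transcripts of low to moderate level, and 2.54% of the members stood at 100 CPM or more in both Wov 2 and WT 1. In Wov 2 their lowest, median and highest levels were 3.05, 10.5 and 336 CPM, and in WT 1 they were 3.07, 9.63 and 283 CPM. In Wov 1 the corresponding levels were 0, 1.21 and 47.2 CPM, and in WT 2 they were 0, 0.900 and 25.7 CPM. The ranges of levels overlap between the libraries because members differ in abundance, while each single member is separated by construction. The medians rest on 114 reads in Wov 2 and 113 in WT 1, against 11 reads in Wov 1 and 10 in WT 2. All members together held 48079 reads in Wov 2 and 47612 in WT 1, against 5398 in Wov 1 and 4656 in WT 2. As a share of the library this was 0.445% in Wov 2 (interval 0.441 to 0.449) and 0.406% in WT 1 (0.402 to 0.409). In Wov 1 it was 0.0592% (0.0576 to 0.0608), and in WT 2 it was 0.0419% (0.0407 to 0.0431). The summed share was thus 7.52 times as high in Wov 2 as in Wov 1 and 9.68 times as high in WT 1 as in WT 2. Between the genotypes it differed by less, 1.10 times in Wov 2 against WT 1 and 1.41 times in Wov 1 against WT 2.

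**Figure D1:**
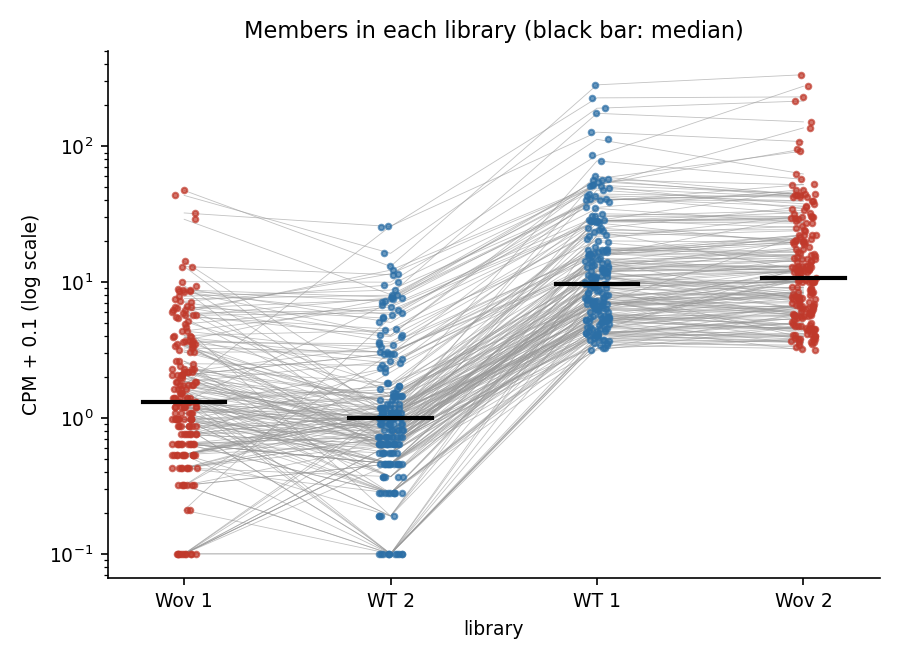
Levels of the 197 members in each library, as CPM + 0.1 on a log scale, with a grey line for each member, red points for Wov, blue points for WT and a black bar at the median. Every member descends from Wov 2 and WT 1 to Wov 1 and WT 2, as the rule demands, and 2 members have no read in either Wov 1 or WT 2.

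The gap of a member is the smaller CPM of Wov 2 and WT 1 divided by the larger CPM of Wov 1 and WT 2, with a library at 0 set to 3 reads. It ran from 4.01 to 37.3 with a median of 5.18. It exceeded 5 in 105 members, 8 in 36, 10 in 20 and 16 in 8. The counting interval of the gap lay wholly above 4 in 47 members and reached below 2 in 4, so the place of most members relative to the threshold is within counting error. Just inside the threshold, 24 members had gaps from 4.01 to 4.2. Just outside it, 23 models had gaps from 3.81 to nearly 4. Over a wider margin, 164 models had gaps from 3 to 4, and the interval of 149 of them reached above 4. A further 81 models between 1 and 3 CPM were more than 4-fold apart in the same way but under the CPM minimum.

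The highest member, gene_28877, had 336 CPM in Wov 2 and 283 CPM in WT 1, whereas Wov 1 had 47.2 CPM and WT 2 13.0 CPM. These levels rest on 3637, 3324, 431 and 144 reads in the same order. It was 7.12-fold higher in Wov 2 than in Wov 1 and 21.9-fold higher in WT 1 than in WT 2, and its gap was 5.997 (interval 5.42 to 6.65). Per length, with 676 bases behind the FPKM (reads per kilobase of gene length, scaled to library depth), it reached 498 FPKM in Wov 2 and 419 FPKM in WT 1. The Wov 1 level was 3.64 times that of WT 2 (interval 3.01 to 4.43), whereas Wov 2 was 1.19 times WT 1 (1.13 to 1.25).

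The model gene_8541 had a wide gap at a lower level. Its reads numbered 107 in Wov 2 and 113 in WT 1, against 5 in Wov 1 and 5 in WT 2. As levels, Wov 2 had 9.90 CPM and WT 1 9.63 CPM, while Wov 1 had 0.548 CPM and WT 2 0.450 CPM. The genotypes were nearly even where the level was high: Wov 2 was 1.03 times WT 1 (interval 0.782 to 1.35). Its gap was 17.6, with an interval of 7.31 to 55.2.

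The model gene_79656 showed the reverse imbalance between the low libraries. Its level was 108 CPM in Wov 2 and 127 CPM in WT 1, but 1.64 CPM in Wov 1 against 25.7 CPM in WT 2. The step within Wov was 65.8-fold and that within WT 4.93-fold. Its gap of 4.2 (interval 3.69 to 4.80) was among the narrow ones, since WT 2 held 286 reads and Wov 1 held 15. The Wov 1 level was 0.0639 times that of WT 2 (interval 0.0353 to 0.107).

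The model gene_37895 had the third widest gap, 21.7 (interval 9.72 to 60.4). Wov 2 had 127 reads (11.7 CPM) and WT 1 had 165 (14.1 CPM), against 2 reads (0.219 CPM) in Wov 1 and 6 (0.540 CPM) in WT 2. It stood low in Wov 1 and WT 2 at counts where their order cannot be read, since Wov 1 was 0.406 times WT 2 with an interval of 0.0401 to 2.27.

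Among the other members, the second in level held 32.2, 231, 227 and 25.6 CPM in Wov 1, Wov 2, WT 1 and WT 2. Its genotypes were closely matched in both pairs, with Wov 2 at 1.02 times WT 1 (interval 0.963 to 1.07) and Wov 1 at 1.26 times WT 2 (1.07 to 1.49). The widest gap of all, 37.3 (interval 14.3 to 139), belonged to a member with 177 reads in Wov 2 and 201 in WT 1, against 4 in Wov 1 and 1 in WT 2. No read was found in Wov 1 for 11 members and in WT 2 for 11, and 2 members had none in either. Those 2 held 58 and 50 reads in Wov 2 and 47 and 41 in WT 1. Their gaps, with the low libraries set to 3 reads, were 12.2 and 10.6. The counting intervals of the gaps, taken on 0 reads, began at 9.52 and 8.26. The 10 members of highest level took 36.6% of the members' reads in Wov 2, 34.2% in WT 1, 35.4% in Wov 1 and 29.6% in WT 2, so the remaining 187 members held most of the reads in each library.

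The median difference of the members within a genotype was larger in wild type, a value the rule bounds from below in both genotypes. The log2 difference of WT 1 minus WT 2, on CPM + 0.1, had a median of 3.15 and ran from 1.97 to 7.13. That of Wov 2 minus Wov 1 had a median of 2.74 and ran from 1.89 to 7.56. The WT difference was the larger one in 126 of the 197 members. Over the 26784 models with at least 3 CPM in Wov 2 and WT 1 the medians were 0.01 for WT and 0.10 for Wov. Of these models 0.736% were members.

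**Figure D2:**
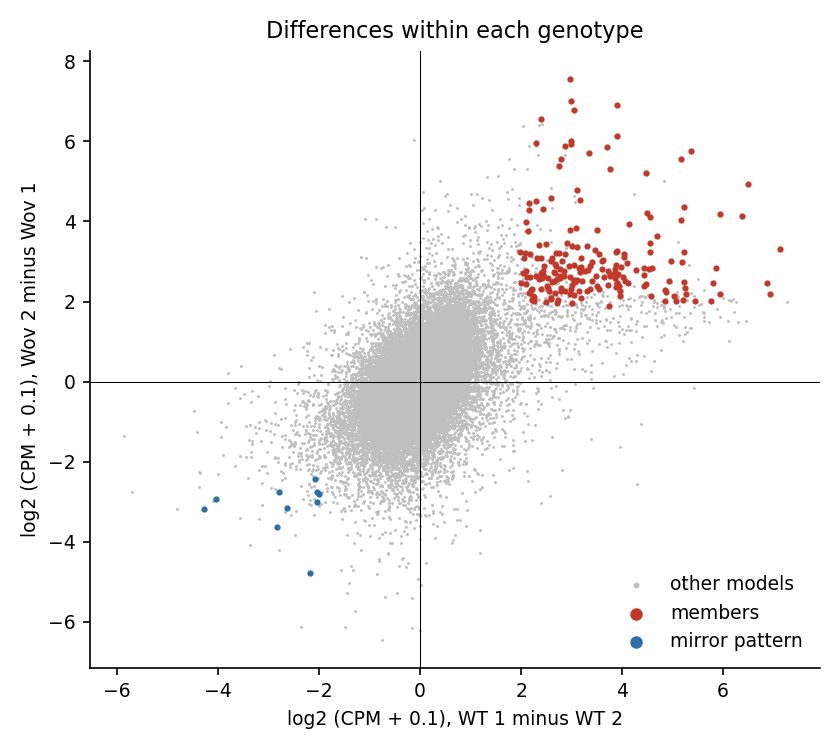
Differences within the genotypes for the 33647 models with at least 3 CPM in a library, as log2 of CPM + 0.1, with WT 1 minus WT 2 on the horizontal axis and Wov 2 minus Wov 1 on the vertical axis. The 197 members (red) fill the upper right corner by the rule, and the 10 models of the opposite pattern (blue) sit in the lower left.

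The opposite pattern was scarce. The same rule with the library pairs exchanged, so that Wov 1 and WT 2 were high, was met by 10 models, 0.0379% of the 26372 models at 3 CPM in those libraries. Their median level was 14.1 CPM in Wov 1 and was 7.47 CPM in WT 2, whereas Wov 2 had 1.25 CPM and WT 1 had 1.49 CPM. The imbalance widened with the fold required. At 2-fold there were 680 models of the members' pattern and 252 of the opposite one, at 3-fold 361 and 43, at 5-fold 105 and 1, and at 8-fold 36 and 0. Strong differences shared by the genotypes thus ran mostly in 1 direction, with Wov 2 and WT 1 high. The labelled genotypes gave 383 models high in both Wov libraries and 96 high in both WT libraries by the same rule, and pairing the libraries by their number gave 1 and 0. With a library left out, so that 3 had to stand apart, the members' pattern was the more frequent one, but by less. Leaving a library out only relaxes the rule, so each count still holds the 197 members or the 10 opposite models. Part of the excess is thus carried over, and whether the imbalance persists cannot be read from these counts. The counts were 517 and 45 without Wov 1, 323 and 145 without Wov 2, 322 and 193 without WT 1, and 712 and 406 without WT 2. These counts describe single libraries and carry no test.

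**Figure D3:**
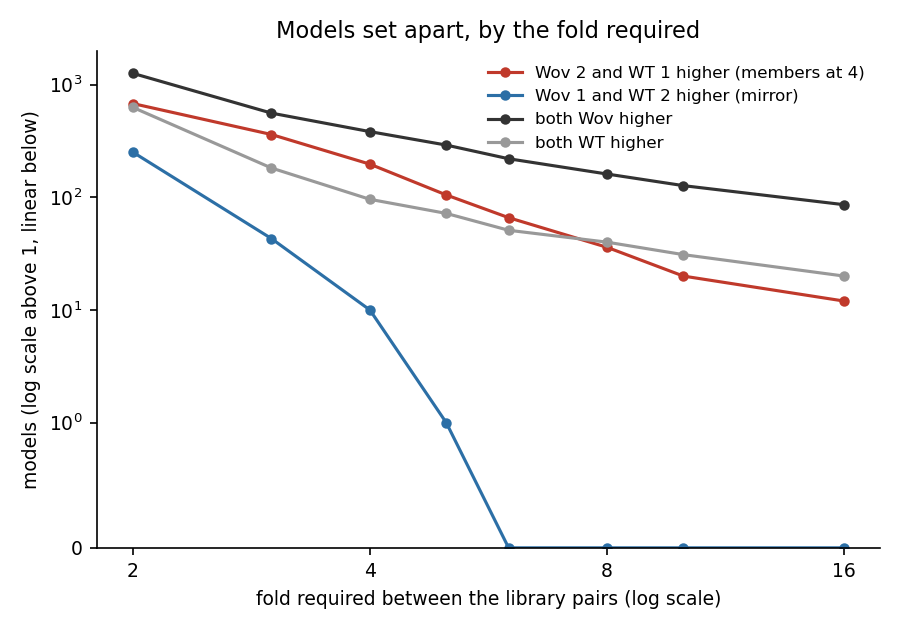
Number of models set apart by at least 3 CPM and a given fold, for folds from 2 to 16 on a log axis, with the count on an axis that is logarithmic above 1. The members' pattern (red) falls from 680 models at 2-fold to 12 at 16-fold, counted with libraries at 0 left at 0 (8 when they are set to 3 reads), while the opposite pattern (blue) falls from 252 to 0 and has none from 6-fold on.

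The imbalance was present within WT but not within Wov. WT 1 exceeded WT 2 more than 4-fold in 663 models, 2.15% of the 30808 with 3 CPM in either, and WT 2 exceeded WT 1 in 212, or 0.688%. In Wov the counts were nearly equal, with Wov 2 above Wov 1 in 915 of 32032 models, or 2.86%, and Wov 1 above Wov 2 in 922, or 2.88%. Of the 915 models higher in Wov 2 than in Wov 1, 31.6% were also more than 4-fold higher in WT 1 than in WT 2, and these made up 43.6% of the 663 models higher in WT 1. In the opposite direction, 53 models were shared, 5.75% of the 922 and 25% of the 212. The first overlap holds 289 models, and the 197 members lie within it by the rule.

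The other 92 of these 289 models met the fold within each genotype but failed the rule, which compares the smaller high level with the larger low level across genotypes. In them, Wov 2 and WT 1 differed by a median of 0.56 on the log2 scale in either direction, against 0.26 in the members. More than 2-fold apart were 14 of the 92, or 15.2%, near the 13.6% of all models at the minimum. A model with both within-genotype folds fails the rule only through unequal levels between genotypes, so the closeness of the genotypes among the members is in part set by the rule.

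Levels of the members in Wov 2 and WT 1 were close. The log2 ratio of Wov 2 to WT 1 had a median of 0.03 and ran from -1.22 to 1.71, and its sign turned to -0.03 with TMM scaling, so no direction is given. More than a 2-fold difference was seen in 9 members, 8 of them higher and 1 lower in Wov 2. Among all 26784 models at the same minimum, 13.6% differed more than 2-fold between these libraries, 7.17% being higher and 6.47% lower in Wov 2. No member differed more than 4-fold, against 1.30% of those models. The counting interval of the ratio excluded equality in 75 members, or 38.1%, compared with 59.2% over the same models. Such an interval narrows with more reads, and the models were not matched to the members in level. The rule also favours members with close levels in Wov 2 and WT 1. The widest ratio among abundant members was that of the sixth in level, with 277 CPM in Wov 2 and 85.5 CPM in WT 1, a ratio of 3.23 (interval 3.01 to 3.48). In Wov 1 and WT 2 that member stood at 9.97 and 9.90 CPM, a ratio of 1.01 (0.754 to 1.34).

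Levels in Wov 1 and WT 2 were less alike. The log2 ratio of Wov 1 to WT 2 had a median of 0.42 over the 195 members with a read in either library, and over all members it ran from -4.71 to 4.63. Much of this range rests on few reads, since 56 members had fewer than 10 reads in each of these libraries. Among the 118 members whose larger level of the pair lay between 1 and 10 CPM, Wov 1 was more than 2-fold above WT 2 in 49 and more than 2-fold below it in 12. Over all 19273 models in that range, 19.8% were above and 15.7% below. The counting interval of the ratio excluded equality in 51 of the 118 members, or 43.2%, near the 43.8% of all models in the range. In the 37 members with at least 20 reads in each library the median log2 ratio was 0.15.

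Members with a large imbalance between the low libraries were of both kinds. With at least 1 CPM in the larger, Wov 1 exceeded WT 2 more than 4-fold in 25 members. The member of rank 43 in level had 42 reads in Wov 1 and 1 in WT 2, a ratio of 51.1 (interval 8.69 to 2067), against 25.8 CPM in Wov 2 and 22.2 CPM in WT 1. WT 2 exceeded Wov 1 more than 4-fold in 6 members. The share of all models this far apart was not counted, so neither count is read as a trait of the members. The member of rank 21 had 1 read in Wov 1 and 60 in WT 2, a ratio of 0.0203 (interval 0.000505 to 0.117), against 39.6 CPM in Wov 2 and 43.2 CPM in WT 1. Both members were well matched between genotypes where they were high and far apart where they were low.

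**Figure D4:**
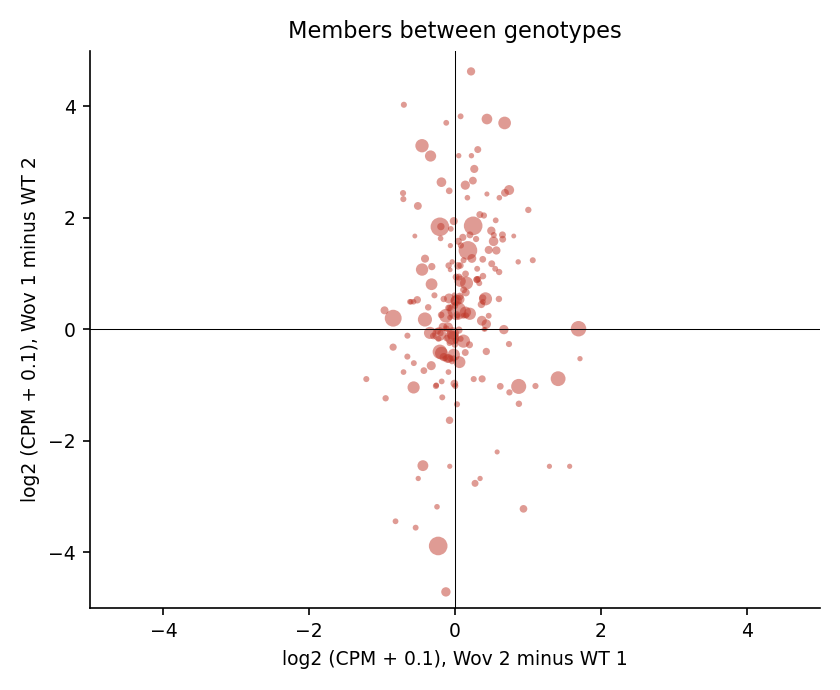
Genotype differences of the 197 members as log2 of CPM + 0.1, with Wov 2 minus WT 1 on the horizontal axis, Wov 1 minus WT 2 on the vertical axis and point area growing with the summed reads in Wov 1 and WT 2 up to a fixed size. Each point is 1 member, and the points span -1.22 to 1.71 horizontally and -4.71 to 4.63 vertically.

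The order of the 4 libraries differed among members. The most frequent order, from high to low, was Wov 2, WT 1, Wov 1, WT 2, in 79 members, counting the 2 tied at 0 in the last places. In 47 members it was WT 1, Wov 2, WT 2, Wov 1, in 44 it was WT 1, Wov 2, Wov 1, WT 2, and in 27 it was Wov 2, WT 1, WT 2, Wov 1. Wov was the higher genotype in both pairs in 77 members and the lower in both in 47. The direction differed between pairs in 71, of which 27 were higher in Wov only where levels were high and 44 only where they were low. Many of these directions lie within counting error. The interval of Wov 2 over WT 1 excluded equality in 75 members, and 56 had fewer than 10 reads in both Wov 1 and WT 2. Orders and directions were not counted over all models, so they are descriptions only. The ratio in the one pair had a Pearson correlation of 0.070 with that in the other across the 197 members. Counting error in the few reads of Wov 1 and WT 2 can lower this value, and it was not computed over all models. The levels in Wov 2 and WT 1 correlated at 0.94 on the log2 scale and those in Wov 1 and WT 2 at 0.59, with medians of 11 and 10 reads behind the latter. Over all 26784 models at the minimum these correlations were 0.89 and 0.82. Those models were not matched to the members in level, and the rule holds only the members low in Wov 1 and WT 2, so 0.59 and 0.82 are not like for like. Correlations across genes are descriptions, and the points share their libraries.

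The comparison of the labelled genotypes called no member. All 197 passed the filter on low counts and entered the edgeR quasi-likelihood fit. At a Benjamini-Hochberg adjusted p under 0.05 the fit called 0 members and 0 of 38981 models, a background of 0%. At an unadjusted p under 0.05 it again had 0 members, where 14.3% of all tested models lay, and the smallest p among members was 0.346. The fitted log2 fold change of Wov over WT had a median of 0.03 over the members and ran from -1.26 to 1.60, and it was above 0 in 104 members and below 0 in 93. For gene_28877 it was 0.31 (SE 1.39) with an adjusted p of 0.943, for gene_79656 -0.53 (SE 1.53) with an adjusted p of 0.905. For gene_37895 it was -0.34 (SE 1.64) and for gene_8541 0.00 (SE 1.52). The rule selects a wide spread within each genotype, which enlarges these errors, so the missing calls do not show that the genotypes were alike. DESeq2 gave 0 members at an unadjusted p under 0.05 as well, against 10.7% of all models. When WT 1 was left out, the wild type was WT 2 alone, and when Wov 2 was left out, the transgenic group was Wov 1 alone. The rule makes every member low in WT 2 and in Wov 1 alike. It also puts Wov 2 more than 4-fold above WT 2, and WT 1 more than 4-fold above Wov 1. The direction of the members in these 2 settings was thus largely set by the rule, and their calls there are not read as genotype results.

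Members were found at every level above the minimum and were rarer among long models. By the smaller CPM of Wov 2 and WT 1, the share of models that were members was 0.9996% from 3 to 5 CPM, 0.862% from 5 to 10, 0.631% from 10 to 30, 0.570% from 30 to 100 and 0.379% above 100 CPM. The median gap stayed between 4.78 and 5.39 in these classes, and the widest gap, 37.3, lay in the class from 10 to 30 CPM.

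Gene length, which the rule did not use, had a median of 1928 bases in the members and 2298 bases in all 26784 models at the same CPM minimum. The longest member had 7233 bases and the shortest 409. In 5 length classes of nearly equal size, the share of members was 0.894% up to 1268 bases, 0.916% up to 1920, 1.03% up to 2773, 0.617% up to 4319 and 0.224% above that. Members were thus less frequent among the longest models, 12 of 5356. The single-genotype differences ran the same way: Wov 2 was more than 4-fold above Wov 1 in 3.61% of the shortest class and 1.21% of the longest, and WT 1 above WT 2 in 2.29% and 1.36%. Differences in these directions were thus rarer among long models in both genotypes. The members are themselves among the models counted in both genotypes. Whether the length pattern holds without the members was not tested. The opposite directions were not counted by length, and some long models were more than 4-fold higher in Wov 1 than in Wov 2.

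**Figure D5:**
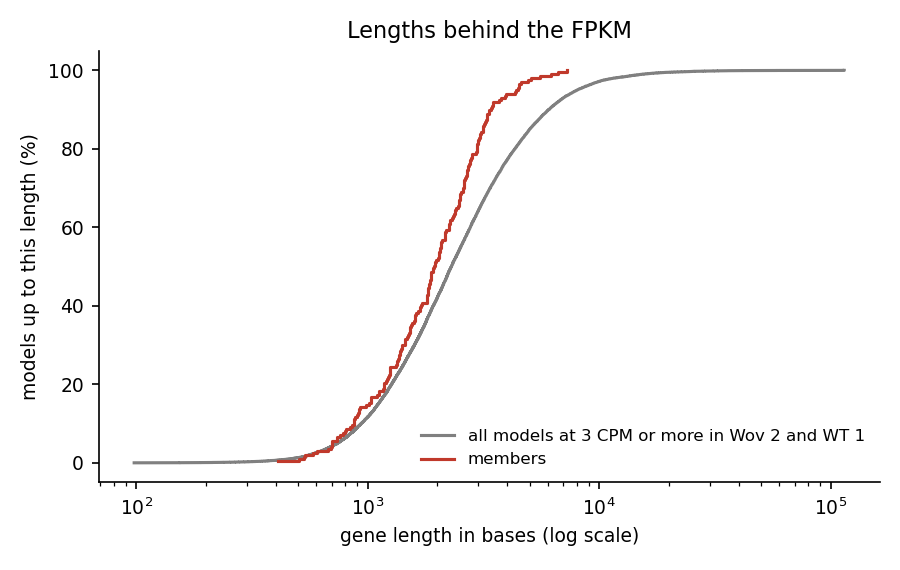
Cumulative share of models by gene length in bases on a log axis, for the members (red) and for all 26784 models with at least 3 CPM in Wov 2 and WT 1 (grey). The medians are 1928 and 2298 bases, and the red curve ends at 7233 bases.

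Few members had neighbouring ID numbers. For 153 members the next ID was in the table, and for 3 of them, or 1.96%, it was a member too, against 0.389% members among all models. Whether IDs follow the order of genes in the genome is not stated in the files. In the first pair, models of 701 and 1951 bases stood at 4.81 and 29.96 CPM in Wov 2 and at 5.37 and 30.3 CPM in WT 1. In the second, of 909 and 2696 bases, they stood at 9.99 and 43.9 CPM in Wov 2 and at 10.6 and 55.0 CPM in WT 1. In the third, models of 694 and 872 bases had almost the same profile, with 47.3 and 47.9 CPM in Wov 2 and, in WT 1, 28.3 and 35.4 CPM. In Wov 1 they stood at 6.57 and 8.66 CPM, and WT 2 had 1.08 and 0.540 CPM. Whether such neighbours are copies that share reads was not tested. At ID steps of 2, 5 and 10 there were 1, 2 and 1 pairs among the 147, 130 and 130 members with that ID listed. These are 0.680%, 1.54% and 0.769%, against the same 0.389% of all models. At that share most members would lack such a neighbour in any case, and the counts are too small to read further.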

How the data were processed

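Young leaf RNA was measured in 4 libraries, 2 of Wov and 2 of WT. The authors deposited a table of raw read counts per gene model and a table of FPKM for the same 50705 models. TopHat is named in the submitters' processing notes, while its version, the counter, the annotation and strandedness were not given in those notes or the labels. All 181596 deposited FPKM above 0 equalled counts divided by a gene length and the library total within a relative tolerance of 1e-04, so they gave lengths and no second measurement. Per the labels, sample titles supply the replicate numbers.

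CPM used column totals. Ratios between libraries were taken as log2 of CPM + 0.1. Genotypes were compared with edgeR 4.0.16 under R 4.3.3 (default count filter, TMM, robust quasi-likelihood, two-sided, Benjamini-Hochberg over all tested models, tested on simulated data). DESeq2 1.42.0, other scalings and filters, a replicate block and left-out libraries were alternatives. Intervals are Clopper-Pearson or conditional binomial, from scipy 1.17.1. The IDs named are, among members higher in Wov in both pairs and among those lower in both, the highest in level and the widest in gap. The members and all lists were chosen with earlier results of these data known.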

Additional observations from a re-analysis of the deposited data

How the results depend on the processing

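The number of members was 200 on TMM library sizes and 201 on DESeq2 size factors, each sharing 190 with the 197, and 278 at 1 CPM and 141 at 3 FPKM. It followed the thresholds by construction, with 680 at 2-fold, 36 at 8-fold and 88 at 10 CPM, and it was 322 to 712 when libraries were left out in turn, since fewer have to stand apart. Opposite models numbered 252 at 2-fold, 0 at 8-fold, 29 at 1 CPM, 4 at 10 CPM, 4 at 3 FPKM and 45 to 406 with a library left out. The 406, without WT 2, stood against 712 of the members' pattern, and without WT 1 there were 193 against 322. The imbalance of 197 to 10 was thus much smaller with either WT library left out. Without Wov 1 it was 517 to 45 and without Wov 2 323 to 145. All of these counts still include the 197 members or the 10 opposite models. The median log2 ratio of Wov 2 to WT 1 turned from 0.03 to -0.03 on TMM library sizes (-0.0344) and on DESeq2 size factors (-0.0368). That of Wov 1 to WT 2 was 0.21 on log2(CPM + 1) and 0.154 with at least 20 reads, with the cause not tested.

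Models past an adjusted p of 0.05 between genotypes numbered 0 in edgeR, 1392 in DESeq2, 178 with no filter on low counts and 1 to 2416 with a library left out, where the lone library is assumed to vary like the others. Members at an unadjusted p under 0.05 numbered 0 to 77 then, against 6.75% to 26.4% of all models. With the replicate number as a block, 0 models and 0 members were called. Same-numbered libraries deviated oppositely from their genotype means, with a correlation of -0.49 across models, and the numbers were therefore not treated as pairing the libraries. The crossed pairing as a replicate block, chosen after seeing the data, called 5651 models and 1 member at an adjusted p under 0.05, and 17 members had an unadjusted p under 0.05, against 27.6% of all models.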
